A study of Mus musculus with 12 samples.

Results

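The 8 genes described here serve red blood cell development: Alas2, Urod and Fech encode enzymes of haem synthesis, Tfrc the transferrin receptor, Slc4a1, Ank1 and Ermap proteins of the red cell membrane, and Klf1 an erythroid transcription factor. They were chosen with earlier results of these data known and were picked out by gene name. All 8 were found among the 41128 genes of the count table and of the RPKM table. All 8 passed the filter on low counts, which 15347 genes passed in all.

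RNA was sequenced from mouse haemogenic endothelium, the endothelium from which blood cells arise. The cells were grown from iSox7 embryonic stem cells, an Ainv18 derivative in which doxycycline (Dox) switches on Sox7, the gene of a transcription factor of early endothelium. Embryoid bodies of day 3.5 gave the cells carrying FLK1, a receptor of blood and vessel precursors, and these spent 48 h in liquid blast medium, which contained transferrin, VEGF and IL6. The Dox cells then received 1 µg/ml Dox and were harvested after 6, 12 or 24 h, and untreated cells of the same transgenic line were harvested after the same hours. Each of these 6 groups had 2 libraries. None of the samples used here were Dox-treated cells without the transgene, so effects of SOX7 and of Dox itself cannot be told apart. Whether replicates were separate cultures is not stated in the labels, and a p-value then reflects the spread between libraries alone, which may be technical.

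On GRCm38, the build named in the submitters' processing notes, the authors' tables place Alas2 (ENSMUSG00000025270) on the plus strand at chrX:150547375-150570638. Urod (ENSMUSG00000028684) is on the minus strand at chr4:116989965-116994413, Fech (ENSMUSG00000024588) on the minus strand at chr18:64456550-64489066, and Tfrc (ENSMUSG00000022797) on the plus strand at chr16:32608920-32632794. Slc4a1 (ENSMUSG00000006574) is on the minus strand at chr11:102348824-102366203, Ank1 (ENSMUSG00000031543) on the plus strand at chr8:22974844-23150497, Ermap (ENSMUSG00000028644) on the minus strand at chr4:119175457-119190011, and Klf1 (ENSMUSG00000054191) on the plus strand at chr8:84901928-84905295. All 8 are protein-coding, and values are for whole genes, not transcripts. Alas2 lies inside Apex2, a DNA repair gene on the other strand (chrX:150519519-150589868), and the gene models that overlap Ank1 held at most 2 counts in any library.

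Haem is built by a chain of enzymes that starts in the mitochondrion with aminolevulinate synthase, passes through the cytosol and ends in the mitochondrion, where ferrochelatase inserts iron. Developing red cells take up that iron through the transferrin receptor and build a membrane in which the anion exchanger is tied to the spectrin skeleton by ankyrin. KLF1 switches on many of these genes in erythroid cells, through CACC-type DNA motifs and often near sites of the GATA factors.

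The DNA just upstream of 4 of the genes is shown because Alas2, Ermap and Klf1 each held 1 GATA motif there and Tfrc held none. Upstream DNA of Urod also held none and is not shown. The sequences are from RefSeq on GRCm38.p6, 5′ to 3′ on the gene's own strand, and end before both the RefSeq start and the start in the authors' tables. Capitals mark the GATA motif, searched on both strands as AGATAA, also with T as the first letter or G as the last.
Alas2, chrX:150547167-150547374, plus strand: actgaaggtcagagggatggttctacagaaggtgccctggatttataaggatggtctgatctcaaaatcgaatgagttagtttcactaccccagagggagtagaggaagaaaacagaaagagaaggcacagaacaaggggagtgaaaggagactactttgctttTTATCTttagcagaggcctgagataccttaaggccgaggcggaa
Ermap, chr4:119190012-119190245, minus strand: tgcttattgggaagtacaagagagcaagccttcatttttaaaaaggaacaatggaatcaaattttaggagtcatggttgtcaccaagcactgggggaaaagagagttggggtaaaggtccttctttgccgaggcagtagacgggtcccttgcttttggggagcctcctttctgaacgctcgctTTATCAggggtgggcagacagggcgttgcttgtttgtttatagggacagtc
Klf1, chr8:84901732-84901927, plus strand: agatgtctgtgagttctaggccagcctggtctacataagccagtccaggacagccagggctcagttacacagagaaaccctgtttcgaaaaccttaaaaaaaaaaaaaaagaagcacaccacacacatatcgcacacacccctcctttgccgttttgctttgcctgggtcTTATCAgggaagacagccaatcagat
Tfrc, chr16:32608646-32608895, plus strand: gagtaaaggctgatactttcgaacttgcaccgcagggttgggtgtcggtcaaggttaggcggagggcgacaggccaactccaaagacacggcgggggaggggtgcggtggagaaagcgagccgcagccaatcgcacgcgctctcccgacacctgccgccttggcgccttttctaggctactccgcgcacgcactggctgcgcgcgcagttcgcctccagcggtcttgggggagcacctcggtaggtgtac

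Motifs were searched in the whole 250 bases before the RefSeq start, for which windows of Alas2, Urod, Tfrc, Ermap and Klf1, 5 of the 8 genes, were used; Tfrc has a pair of RefSeq starts, and the upstream one is shown. The GATA motif lay 81 to 86 bases before the start of Alas2, 62 to 67 before that of Ermap and 75 to 80 before that of Klf1, each time as its reverse complement. Of all 32851 RefSeq windows of this length, 26.5% held a GATA motif. The CACC motif (CCNCNCCC, either strand) was found at 4 overlapping or neighbouring places before Alas2 and at 3 before Tfrc, and 45.9% of all windows held it. Those of Alas2 lay 19 to 42 bases before the RefSeq start. This is past the end of the stretch shown, inside the gene as the authors' tables place it. The E-box (CANNTG, which reads the same on both strands) was found at 4 places before Urod and 1 each before Tfrc and Klf1, and 66.2% of all windows held it. The Tfrc window had 25 CpG pairs and the other 4 had 3 to 9, against a median of 6 over all windows. These matches describe letters in a window and were not tested for binding.

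Total counts ran from 13485804 to 35250074 per library, with 1 shallow library (at most 15429846) and 1 deep one (at least 27516106) in every group. Sox7, the induced gene, averaged 320 ± 8.55 CPM (counts scaled to library size) with Dox and 79.8 ± 2.65 CPM without Dox at 6 h, 377 ± 2.56 against 62.2 ± 9.34 CPM at 12 h, and 334 ± 4.1 against 52.3 ± 0.244 CPM at 24 h (SD, n = 2 each). A transgene read and a read of the resident Sox7 gene are not told apart in these counts. All 12 endothelial markers looked for, among them Cdh5, Pecam1 and Kdr, were detected in every group, with summed levels of 2563 to 3489 CPM.

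One untreated group stood apart for these genes. In the 12 h libraries without Dox, replicate 1 was above replicate 2 for all 8 genes, by 0.11 to 1.11 on the log2 scale with a median of 0.62, while the median size of this difference over 12509 genes was 0.092 (the plot of replicate differences). Globins summed to 2176 CPM in replicate 1 and 1331 CPM in replicate 2, and 8 of 8 haem synthesis genes, 9 of 9 megakaryocyte markers, 14 of 17 erythroid regulators and 16 of 24 membrane genes were higher in replicate 1. Of 17 iron uptake and storage genes 8 were, of 12 of haem transport and turnover 8, of 9 macrophage markers 6, of 10 proliferation markers 5 and of 12 endothelial markers 3, while of the 12509 genes 47.9% were. In the other 5 groups the median size of the difference between replicates of the 8 genes was 0.043 to 0.16. The 12 h Dox effects of the 8 genes and of the gene lists are therefore also given without each of these libraries, as are the steps from or to untreated 12 h cells where a call turns on 1 of them.

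**Figure D1:**
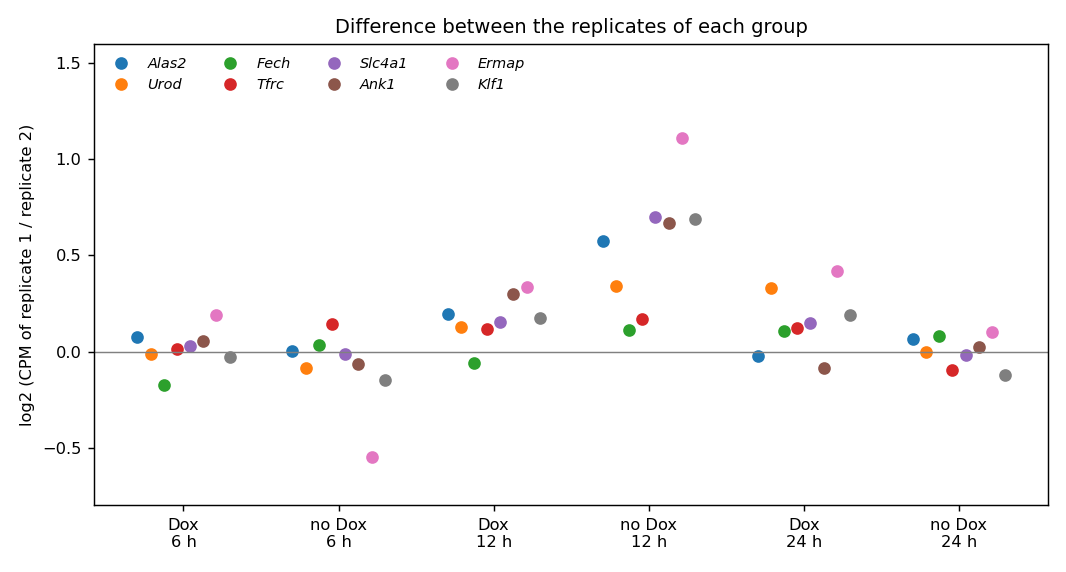
Difference between replicate 1 and replicate 2 of each group, as log2 of the ratio of CPM, for the 8 genes (1 point a gene, 6 groups along the axis). In the untreated 12 h group all 8 points lie above 0, from 0.11 to 1.11, while the other groups span -0.55 to 0.42.

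Dox cells had less RNA of 2 of the 8 genes at 6 h and at 12 h, and of all 8 at 24 h. Differences were tested with edgeR's quasi-likelihood test, and a gene was called where its Benjamini-Hochberg adjusted p, computed across the 15347 tested genes, was under 0.05. At 6 h 2 of 8 genes fell, Slc4a1 and Tfrc, and none rose, while 0.717% of all tested genes were called lower and 0.821% higher. At 12 h 2 of 8 fell, again Slc4a1 and Tfrc, and Alas2 rose, with 3.51% of all tested genes called lower and 3.26% higher. At 24 h 8 of 8 fell, with 6.52% of all tested genes called lower and 4.50% higher. Because the 8 genes were chosen with earlier results of these data known, these shares are background and not a test of the set. The median log2 fold change of the 8 genes, Dox over no Dox, was -0.22 at 6 h, -0.22 at 12 h and -0.98 at 24 h, and that of all tested genes was 0.0052, -0.0096 and -0.0086. These are bulk samples, so fewer cells of a type and less RNA per cell cannot be told apart.

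Both Dox libraries were below both untreated libraries for all 8 genes at 6 h, where 19.7% of all tested genes were so, and for all 8 at 24 h, where 26.0% were. At 12 h this held for 4 of 8 genes (Fech, Tfrc, Slc4a1 and Klf1; 25.7% of all tested genes), Alas2 was above in both Dox libraries (23.2% of all tested genes), and Urod, Ank1 and Ermap overlapped.

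**Figure D2:**
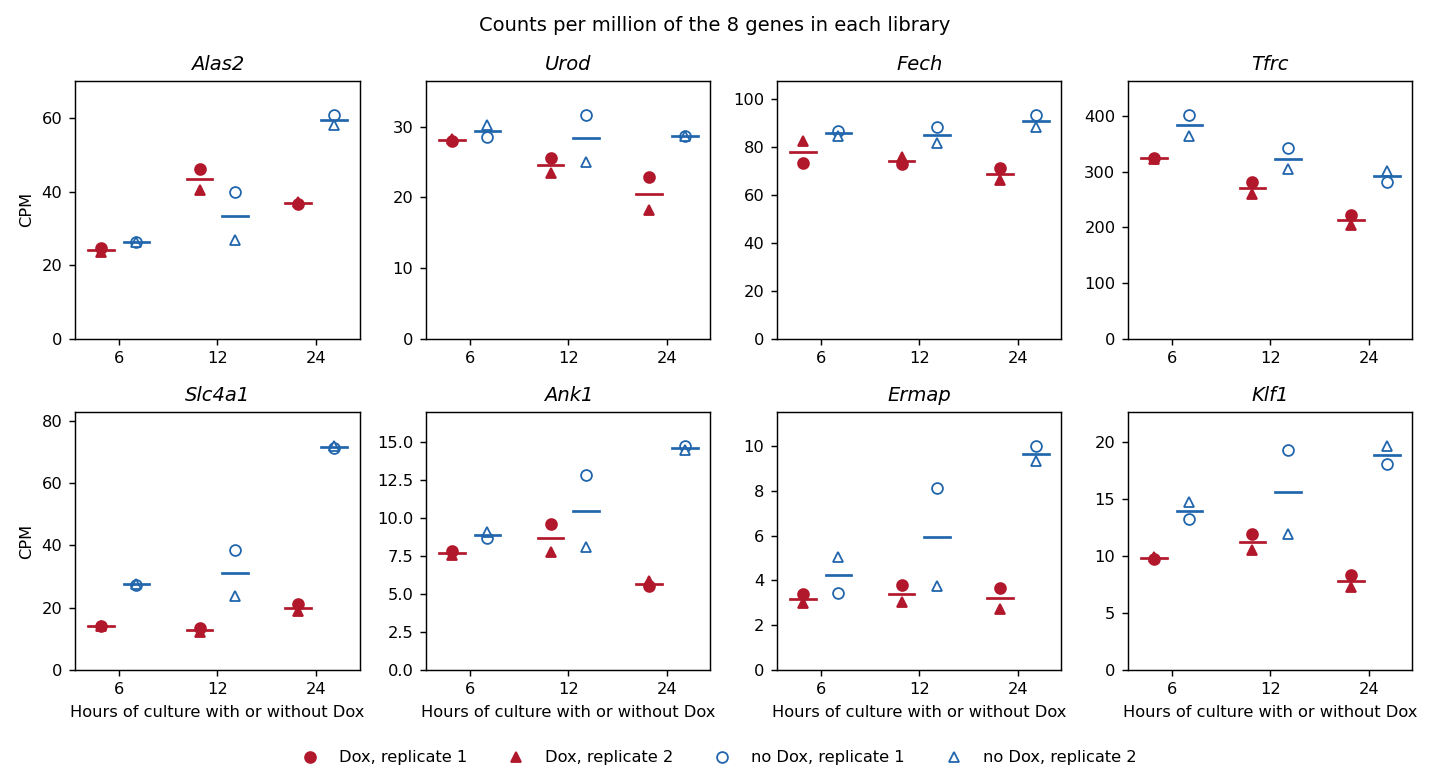
Level of each of the 8 genes in each of the 12 libraries, in CPM on a linear axis from 0, by hours of culture (filled red: Dox, open blue: no Dox; circles replicate 1, triangles replicate 2; bars are means of 2 libraries). At 24 h all Dox points lie below all untreated points, and at 12 h the untreated replicates lie far apart for Alas2, Slc4a1, Ank1, Ermap and Klf1.

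**Figure D3:**
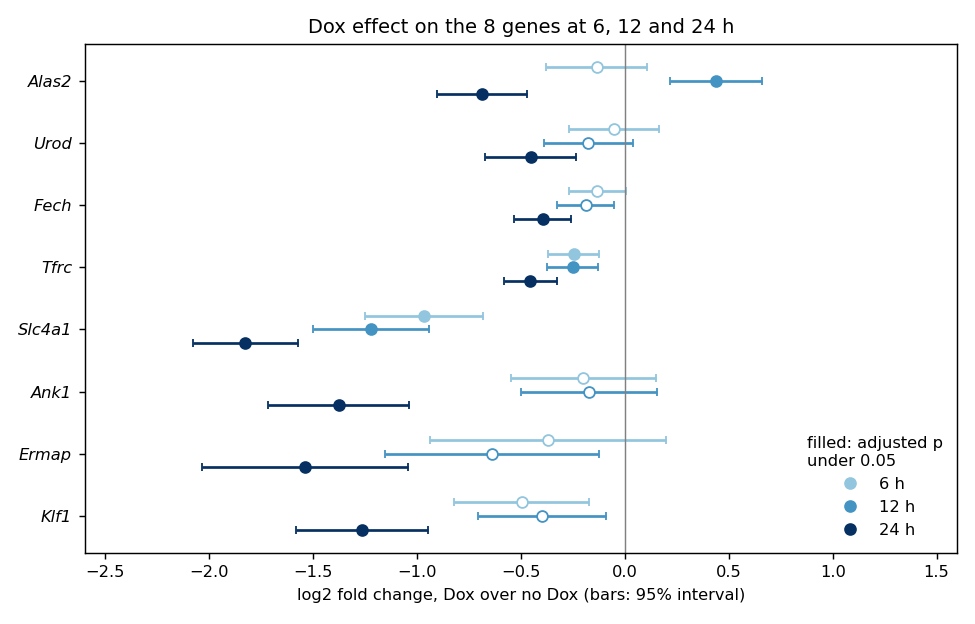
Log2 fold change, Dox over no Dox, of the 8 genes at 6, 12 and 24 h with 95% intervals from the edgeR fit (filled: adjusted p under 0.05). All 8 points of 24 h are filled and below 0, from -0.40 for Fech to -1.83 for Slc4a1, and Alas2 at 12 h is the only filled point above 0.

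Alas2 encodes the erythroid form of aminolevulinate synthase, the first and rate-limiting enzyme of haem synthesis. At 6 h Alas2 was at 24.7 and 23.5 CPM in the Dox libraries, against 26.4 and 26.4 CPM in the untreated ones. At 12 h Alas2 was at 46.2 and 40.4 CPM with Dox, against 39.8 and 26.8 CPM without. At 24 h Alas2 was at 36.7 and 37.3 CPM with Dox, against 61.0 and 58.3 CPM without. The Dox libraries were thus slightly lower at 6 h, higher at 12 h, where the upper untreated library came close to the lower Dox library, and clearly lower at 24 h.

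The log2 fold change of Alas2, Dox over no Dox, was -0.14 ± 0.12 at 6 h (SE; edgeR adjusted p = 0.79), 0.44 ± 0.11 at 12 h (adjusted p = 0.012) and -0.69 ± 0.11 at 24 h (adjusted p = 1.9e-05). Leaving out untreated replicate 1 gave 0.71 at 12 h (edgeR adjusted p = 1e-05), leaving out untreated replicate 2 gave 0.13 (adjusted p = 0.58), and leaving out Dox replicate 1 gave 0.33 (adjusted p = 0.23). DESeq2 gave it as 0.40 with an adjusted p of 0.19, over a range of adjusted p from 1e-05 to 0.58 in 16 alternatives. The fall at 24 h stayed between -0.66 and -0.71 and was called in 16 of 16 alternatives. Apex2, which spans Alas2, was called in none of the 9 comparisons (log2 fold change 0.17 ± 0.10 at 12 h, edgeR adjusted p = 0.35, and 0.18 ± 0.10 at 24 h, adjusted p = 0.33). Its counts were 264 to 930 per library. The kit marks strand, per the labels, but the strand setting of the counting is not given in the sources used here, so reads shared by the overlapping genes cannot be told apart.

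Urod encodes uroporphyrinogen decarboxylase, a cytosolic step of the pathway. At 24 h Urod was at 22.9 and 18.2 CPM with Dox, against 28.6 and 28.6 CPM without, and the groups did not overlap. It fell by 0.45 ± 0.11 on the log2 scale at 24 h (SE; edgeR adjusted p = 0.0036), and had log2 fold changes of -0.053 ± 0.105 at 6 h (adjusted p = 0.95) and -0.18 ± 0.10 at 12 h (adjusted p = 0.37). Its value at 12 h was -0.015 without untreated replicate 1 (adjusted p = 0.97) and -0.36 without untreated replicate 2 (adjusted p = 0.095). Its call at 24 h was lost without Dox replicate 2, the lower library, without untreated replicate 2, and in limma with no filter, with log2 fold changes from -0.65 to -0.32 over the 16 alternatives.

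Fech encodes ferrochelatase, which inserts iron into the porphyrin ring as the last step of haem synthesis. At 24 h Fech was at 71.0 and 66.0 CPM with Dox, against 93.4 and 88.2 CPM without, again without overlap. It fell by 0.40 ± 0.07 on the log2 scale at 24 h (SE; edgeR adjusted p = 7.9e-05), and its log2 fold changes at 6 and 12 h were -0.13 ± 0.07 (adjusted p = 0.51) and -0.19 ± 0.07 (adjusted p = 0.089). At 12 h it was -0.13 without untreated replicate 1 (adjusted p = 0.45) and -0.25 without untreated replicate 2 (adjusted p = 0.093). Without Dox its 6 libraries stayed between 81.5 and 93.4 CPM, a narrow range beside that of Alas2.

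The fall at 24 h ran through most of the pathway. Of 8 haem synthesis genes, Alas2, Urod and Fech included, 6 fell and none rose at 24 h, with a median log2 fold change of -0.46. Of all tested genes 6.52% were called lower and 4.50% higher at that hour. The other enzymes that fell were Alad (-0.52 ± 0.10, edgeR adjusted p = 0.00023), Cpox (-0.47 ± 0.08, adjusted p = 4.5e-05) and Ppox (-0.50 ± 0.15, adjusted p = 0.024), which act between the first and the last step. Uros (-0.34 ± 0.135, adjusted p = 0.11) and Alas1 (-0.066 ± 0.067, adjusted p = 0.64) did not pass the test. Alas1 encodes the form of the first enzyme used in other tissues, and it averaged 61.5 ± 3.9 CPM with Dox and 64.1 ± 0.45 CPM without Dox at 24 h (SD, n = 2 each).

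At the earlier hours 1 enzyme gene fell, Cpox (log2 fold change -0.33 ± 0.08 at 6 h, edgeR adjusted p = 0.016, and -0.35 ± 0.08 at 12 h, adjusted p = 0.0036), which encodes coproporphyrinogen oxidase. At 12 h Cpox was -0.18 without untreated replicate 1 (adjusted p = 0.19) and -0.51 without untreated replicate 2 (adjusted p = 7e-05), and 0 and 2 of the 8 enzyme genes fell in those fits. Of 12 genes of haem transport and turnover, 3 fell and none rose at 24 h: Blvrb (-0.94 ± 0.12, adjusted p = 5.7e-07), a biliverdin reductase, Tmem14c (-0.59 ± 0.10, adjusted p = 5e-05), a mitochondrial porphyrin carrier, and Abcb10 (-0.53 ± 0.07, adjusted p = 4.7e-07), a mitochondrial transporter. The median of the 12 genes was -0.14. Of all tested genes 0.717%, 3.51% and 6.52% were called lower at 6, 12 and 24 h.

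**Figure D4:**
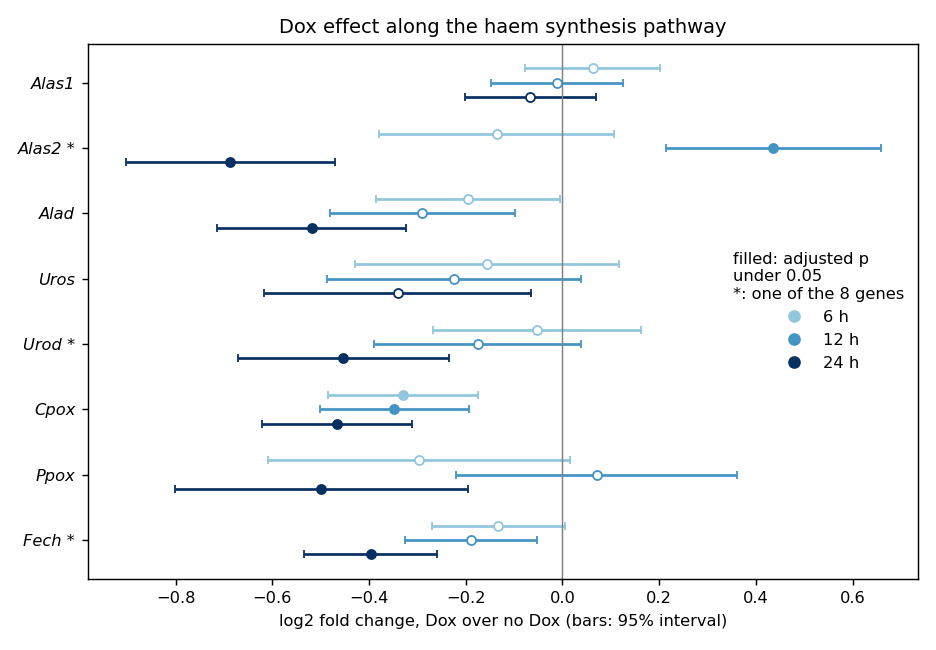
Log2 fold change, Dox over no Dox, of 8 enzyme genes of haem synthesis in pathway order from top to bottom, at 6, 12 and 24 h with 95% intervals (filled: adjusted p under 0.05; stars: Alas2, Urod and Fech). At 24 h all 8 points are below 0 and 6 are filled, while Alas1 at the top stays at -0.066.

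Tfrc encodes the transferrin receptor, which brings iron into the cell, and was the most abundant of the 8 genes. At 6 h Tfrc was at 325 and 322 CPM with Dox, against 402 and 365 CPM without. At 12 h Tfrc was at 281 and 260 CPM with Dox, against 342 and 304 CPM without. At 24 h Tfrc was at 222 and 203 CPM with Dox, against 282 and 301 CPM without. The Dox libraries were below the untreated ones at each hour, and in both conditions each later hour lay below the earlier one.

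The fall of Tfrc with Dox was small at each hour, with log2 fold changes of -0.25 ± 0.06 at 6 h (SE; edgeR adjusted p = 0.026), -0.25 ± 0.06 at 12 h (adjusted p = 0.0091) and -0.45 ± 0.06 at 24 h (adjusted p = 2.3e-06). The calls at 6 and 12 h were lost in limma on RPKM. That at 6 h was also lost without Dox replicate 1, Dox replicate 2 or untreated replicate 1 (log2 fold changes -0.27, -0.24 and -0.18), and that at 12 h when Dox replicate 2 (-0.19, adjusted p = 0.13) or untreated replicate 1 (-0.16, adjusted p = 0.21) was left out. Without untreated replicate 2 of 12 h it was -0.34 (adjusted p = 0.0025). The call at 24 h was kept in 16 of 16 alternatives. Among all tested genes 0.717%, 3.51% and 6.52% were called lower with Dox at 6, 12 and 24 h. Of 17 genes of iron uptake and storage, Tfrc included, 2, 3 and 5 fell at these hours, and none rose. The median log2 fold change of the 17 genes at 24 h was -0.115. Without untreated replicate 1 of 12 h 1 fell at 12 h, and without replicate 2 4 fell. At 24 h the largest falls among them were those of Steap3 (-1.23 ± 0.14, adjusted p = 9.6e-08), the ferrireductase of the transferrin cycle, and Slc25a37 (-1.15 ± 0.13, adjusted p = 1.3e-07), mitoferrin of the inner mitochondrial membrane. Fth1, a ferritin gene, fell by 0.23 ± 0.06 (adjusted p = 0.0065).

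Slc4a1 encodes the anion exchanger of the red cell membrane and had the largest Dox effect of the 8 genes at all 3 hours. At 6 h Slc4a1 was at 14.2 and 13.9 CPM with Dox, against 27.4 and 27.6 CPM without. At 12 h Slc4a1 was at 13.4 and 12.1 CPM with Dox, against 38.6 and 23.8 CPM without. At 24 h Slc4a1 was at 21.1 and 18.9 CPM with Dox, against 71.1 and 72.0 CPM without. No Dox library reached the lowest untreated library of any hour.

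Slc4a1 was thus 1.96-fold lower with Dox at 6 h (log2 fold change -0.97 ± 0.14, edgeR adjusted p = 6.3e-05), 2.33-fold lower at 12 h (-1.22 ± 0.14, adjusted p = 3.4e-07) and 3.55-fold lower at 24 h (-1.83 ± 0.12, adjusted p = 3.6e-12). At 12 h its log2 fold change was -0.88 without untreated replicate 1 (adjusted p = 1.8e-06) and -1.58 without untreated replicate 2 (adjusted p = 7.2e-11). Its calls at 12 and 24 h were kept in 16 of 16 alternatives each. The call at 6 h was lost in limma on RPKM with a pseudocount of 1, where it was -0.77, and without a filter.

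Ank1 encodes ankyrin, which ties the anion exchanger to the spectrin skeleton. At 6 h Ank1 was at 7.83 and 7.53 CPM with Dox, against 8.64 and 9.04 CPM without. At 12 h Ank1 was at 9.56 and 7.76 CPM with Dox, against 12.8 and 8.06 CPM without. At 24 h Ank1 was at 5.48 and 5.81 CPM with Dox, against 14.7 and 14.5 CPM without. The groups overlapped at 12 h and were far apart at 24 h.

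Ank1 was 2.60-fold lower with Dox at 24 h (log2 fold change -1.38 ± 0.17, edgeR adjusted p = 3.4e-07), and had log2 fold changes of -0.20 ± 0.17 at 6 h (adjusted p = 0.78) and -0.17 ± 0.16 at 12 h (adjusted p = 0.6). Its value at 12 h was 0.14 without untreated replicate 1 (adjusted p = 0.76) and -0.54 without untreated replicate 2 (adjusted p = 0.073). On the log2(RPKM + 1) scale, which shrinks the change of low genes, its difference at 24 h was -0.53. Its paralog Ank3 fell at 24 h (-0.39 ± 0.09, adjusted p = 0.0039) and Ank2 had a log2 fold change of -0.017 ± 0.090 (adjusted p = 0.95).

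Ermap encodes an erythroblast membrane protein of the immunoglobulin family, which carries the Scianna blood group in humans. At 6 h Ermap was at 3.40 and 2.98 CPM with Dox, against 3.44 and 5.04 CPM without. At 12 h Ermap was at 3.8 and 3.02 CPM with Dox, against 8.12 and 3.76 CPM without. At 24 h Ermap was at 3.65 and 2.73 CPM with Dox, against 10.0 and 9.32 CPM without. It was the least counted of the 8 genes, with 38 to 307 counts per library, and its Dox libraries stayed in 1 narrow range at all hours.

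Ermap was 2.91-fold lower with Dox at 24 h (log2 fold change -1.54 ± 0.24, edgeR adjusted p = 2.7e-05), with log2 fold changes of -0.37 ± 0.28 at 6 h (adjusted p = 0.74) and -0.64 ± 0.25 at 12 h (adjusted p = 0.13). At 12 h it was -0.094 without untreated replicate 1 (adjusted p = 0.91) and -1.21 without untreated replicate 2 (adjusted p = 0.0028). On the log2(RPKM + 1) scale its difference at 24 h was -0.79, and in limma with no filter its adjusted p was 0.05, which missed the threshold.

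Of 24 tested genes of the red cell membrane, Slc4a1, Ank1 and Ermap included, 2 fell at 6 h, 4 at 12 h and 13 at 24 h, and Aqp1 rose at each hour. Without untreated replicate 1 of 12 h 3 fell and 3 rose at 12 h, and without replicate 2 6 fell and 1 rose. The median log2 fold change of the 24 genes at 24 h was -0.51. Of all tested genes 0.717%, 3.51% and 6.52% were called lower at 6, 12 and 24 h, and 0.821%, 3.26% and 4.50% higher. Gypc, the glycophorin C gene, fell by 0.51 ± 0.07 at 6 h (edgeR adjusted p = 7e-05), 0.40 ± 0.07 at 12 h (adjusted p = 0.00045) and 0.49 ± 0.07 at 24 h (adjusted p = 8.4e-06). Aqp1, a water channel of red cells that endothelium also uses, rose by 0.41 ± 0.07 at 6 h (adjusted p = 0.00097), 0.66 ± 0.07 at 12 h (adjusted p = 8.7e-08) and 0.78 ± 0.07 at 24 h (adjusted p = 6.8e-10). At 12 h both kept their calls without either untreated library, with -0.28 for Gypc (adjusted p = 0.036) and 0.61 for Aqp1 (adjusted p = 5.7e-06) without replicate 1, and -0.54 (adjusted p = 5.6e-05) and 0.73 (adjusted p = 2.9e-06) for the same genes without replicate 2. Rhd and Cldn13 did not pass the filter on low counts.

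**Figure D5:**
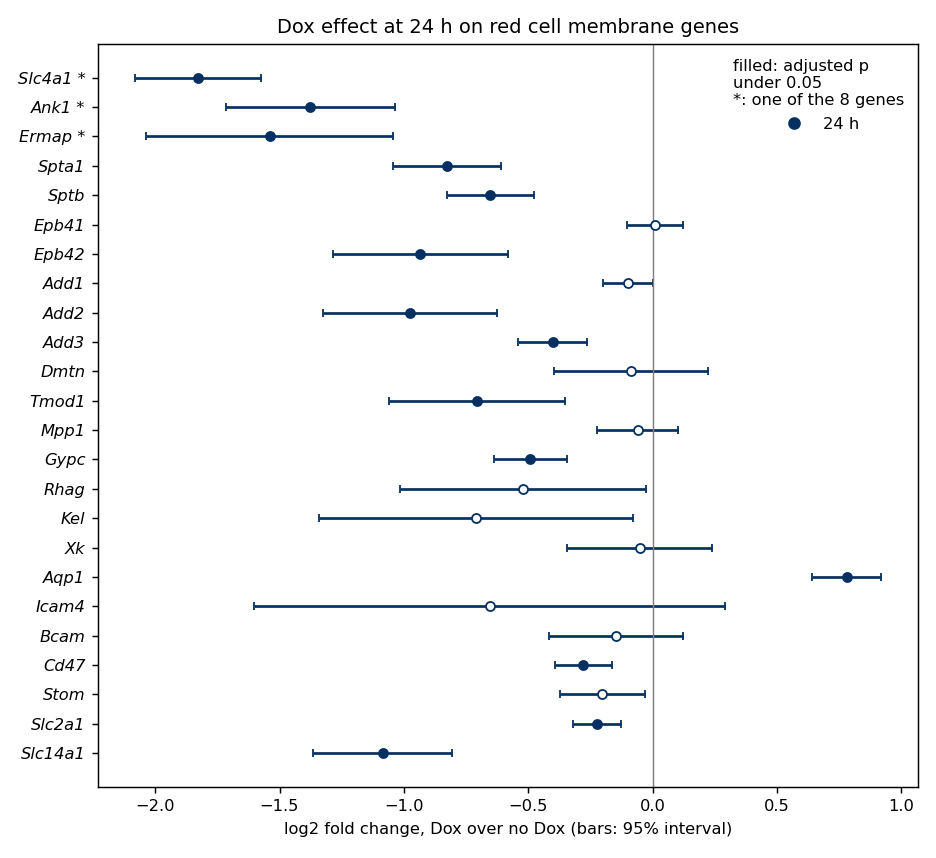
Log2 fold change at 24 h, Dox over no Dox, of 24 tested genes of the red cell membrane with 95% intervals (filled: adjusted p under 0.05; stars: Slc4a1, Ank1 and Ermap). Of the filled points 13 lie below 0, with Slc4a1 at -1.83 and Ermap at -1.54 farthest left, and Aqp1 lies alone on the right at 0.78.

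Klf1 encodes the erythroid Krüppel-like factor. At 6 h Klf1 was at 9.70 and 9.88 CPM with Dox, against 13.2 and 14.7 CPM without. At 12 h Klf1 was at 11.9 and 10.52 CPM with Dox, against 19.2 and 11.9 CPM without. At 24 h Klf1 was at 8.28 and 7.25 CPM with Dox, against 18.02 and 19.6 CPM without. Groups did not overlap at any hour, although at 12 h the upper Dox library and the lower untreated one were nearly level.

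Klf1 was 2.41-fold lower with Dox at 24 h (log2 fold change -1.27 ± 0.16, edgeR adjusted p = 4.9e-07). At 6 h it was -0.50 ± 0.16 (adjusted p = 0.15), and was called with no filter on low counts and in a fit of the 6 h libraries alone. At 12 h it was -0.40 ± 0.15 (adjusted p = 0.11), -0.068 without untreated replicate 1 (adjusted p = 0.89) and -0.76 without untreated replicate 2 (adjusted p = 0.0017). Its call at 24 h was kept in 16 of 16 alternatives. Of its paralogs, Klf3 rose at 24 h (0.27 ± 0.06, adjusted p = 0.0017), Klf2 fell (-0.30 ± 0.09, adjusted p = 0.021) and Klf4 had a log2 fold change of -0.046 ± 0.092 (adjusted p = 0.85).

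Other erythroid regulators passed the test at 6 h. Among all tested genes 0.717%, 3.51% and 6.52% were called lower at 6, 12 and 24 h, and 0.821%, 3.26% and 4.50% higher. Of 17 erythroid regulators, Klf1 included, 8 fell at 6 h, 6 at 12 h and 9 at 24 h, and 1, 3 and 1 rose. At 12 h 2 fell and 4 rose without untreated replicate 1, and 9 fell and 0 rose without untreated replicate 2. At 6 h Gfi1b, a repressor needed by red cells and platelets, fell by 1.37 ± 0.16 on the log2 scale (edgeR adjusted p = 3.2e-06), Nfe2, a subunit of a factor of erythroid and platelet genes, by 0.99 ± 0.10 (adjusted p = 3.7e-07) and Tal1, a basic helix-loop-helix factor of blood formation, by 0.45 ± 0.06 (adjusted p = 2.1e-05). The gene that rose at 6 h was Lmo2 (0.32 ± 0.07, adjusted p = 0.011). At 12 h Lmo2 (0.27 ± 0.07, adjusted p = 0.017), Stat5b (0.29 ± 0.07, adjusted p = 0.0083) and Sox6 (0.40 ± 0.08, adjusted p = 0.0019) rose. Sox6, a factor of erythroid maturation, also rose at 24 h (0.38 ± 0.08, adjusted p = 0.00084). Nfe2, Cbfa2t3 and Lyl1 were among the regulators that fell at both hours. Their log2 fold changes were -0.79, -0.41 and -0.37 at 12 h, and -1.20, -0.47 and -0.50 at 24 h. That Klf1 passed the test only at 24 h does not show that its effect differed from those of the other regulators, which was not tested.

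The Dox effect at 24 h was lower than that at 12 h for Alas2, Ank1 and Klf1, by a test of the difference itself. The difference of log2 fold changes, 24 h minus 12 h, was -1.12 ± 0.15 for Alas2 (SE; edgeR adjusted p = 5.2e-05), -1.20 ± 0.23 for Ank1 (adjusted p = 0.0039) and -0.87 ± 0.22 for Klf1 (adjusted p = 0.04). Of all tested genes 1.02% were called lower in this comparison. The other 5 genes had differences from -0.20 to -0.90 that did not pass the test (adjusted p 0.12 to 0.52).

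These differences share the 12 h libraries with the 12 h effects above. Untreated replicate 1 of 12 h had 13846438 counts and replicate 2 had 33028607. Without untreated replicate 1 the differences were -0.94 for Slc4a1, -1.43 for Ermap, -1.39 for Alas2, -1.50 for Ank1 and -1.19 for Klf1. Slc4a1 and Ermap gained a call in that fit, where more of all tested genes were called than in the main fit. Without untreated replicate 2 the differences were -0.82 for Alas2, -0.84 for Ank1 and -0.50 for Klf1. Without Dox replicate 1 of 12 h Alas2 had -1.01. Ank1 and Klf1 lost their calls in both of these fits, where fewer of all tested genes were called than in the main fit. DESeq2 did not call Klf1 (adjusted p = 0.11), whose call was lost in 12 of 20 alternatives. In limma on RPKM with a pseudocount of 0.1 none of the 8 was called, Alas2 having -1.10 (adjusted p = 0.086). That fit called only 6 of all 15347 tested genes, so its lack of calls says little about the 8.

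Between 6 h and 12 h none of the 8 Dox effects differed by edgeR's test (0.195% of all tested genes were called higher and 0.222% lower). One of the 8, Alas2, had an unadjusted p under 0.05 (difference of log2 fold changes, 12 h minus 6 h, 0.57 ± 0.16, adjusted p = 0.12), and DESeq2 and limma also called 0. Alas2 was called with no filter on low counts (adjusted p = 0.0037), and without untreated replicate 1 of 12 h (0.86, adjusted p = 0.00029), but not without untreated replicate 2 (0.27, adjusted p = 0.6).

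Without Dox, 4 of the 8 genes were higher at 24 h than at 12 h: Slc4a1 (log2 fold change 1.25 ± 0.12, edgeR adjusted p = 4.6e-09), Alas2 (0.88 ± 0.11, adjusted p = 4.2e-07), Ermap (0.81 ± 0.23, adjusted p = 0.0095) and Ank1 (0.55 ± 0.15, adjusted p = 0.0097). Of all tested genes 12.2% were called higher and 10.2% lower. The rises of Slc4a1 and Alas2 were called in 16 of 16 alternatives, from 0.89 to 1.58 and from 0.58 to 1.14. Those of Ermap and Ank1 were 0.24 (adjusted p = 0.55) and 0.19 (adjusted p = 0.52) without untreated replicate 2 of 12 h, and 1.34 (adjusted p = 5.8e-05) and 0.84 (adjusted p = 0.00024) without replicate 1. Both calls were also lost without either untreated library of 24 h and in limma, and that of Ermap in DESeq2 too (0.75, adjusted p = 0.057). Klf1 had 0.34 ± 0.15 (adjusted p = 0.091) with both, 0.66 without replicate 1 (adjusted p = 0.0011) and -0.021 without replicate 2 (adjusted p = 0.94). Tfrc had -0.14 ± 0.06 (adjusted p = 0.088) was called lower without replicate 2 (-0.23, adjusted p = 0.022) and had -0.072 without replicate 1 (adjusted p = 0.54). Of the 24 membrane genes 14 rose over this step and none fell, and of the 8 haem synthesis genes 2 rose, Alas2 and Alas1 (0.19 ± 0.07, adjusted p = 0.043). Without untreated replicate 1 of 12 h 14 membrane genes rose, and without replicate 2 8 did. Alas1 lost its call without either (0.18, adjusted p = 0.15, without replicate 1, and 0.18, adjusted p = 0.17, without replicate 2).

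With Dox over the same hours Slc4a1 also rose (0.65 ± 0.14, edgeR adjusted p = 0.0017; 7.84% of all tested genes were called higher), while Tfrc (-0.35 ± 0.06, adjusted p = 0.00019), Ank1 (-0.65 ± 0.17, adjusted p = 0.0093) and Klf1 (-0.52 ± 0.16, adjusted p = 0.029) fell (5.98% were called lower). The call of Slc4a1 was lost in limma on RPKM (0.47 to 0.60 on its scales). Slc4a1 at 24 h with Dox was still below its untreated level of 6 h, with 21.1 and 18.9 CPM against 27.4 and 27.6 CPM. The fall of Ank1 was lost in 5 of 16 alternatives: the 3 limma fits, without Dox replicate 1 of 12 h (-0.48, adjusted p = 0.23) and leaving out replicate 1 of 24 h (-0.61, adjusted p = 0.085). That of Klf1 was lost in 7 of 16: DESeq2 (-0.53, adjusted p = 0.052), the 3 limma fits, without Dox replicate 1 of 12 h (-0.43, adjusted p = 0.26), and when either Dox library of 24 h was left out (-0.65, adjusted p = 0.052, for replicate 1, and -0.46, adjusted p = 0.14, for replicate 2).

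From 6 h to 12 h Alas2 rose with Dox (log2 fold change, 12 h over 6 h, 0.86 ± 0.11, edgeR adjusted p = 2.6e-06; 8.84% of all tested genes were called higher), and this was called in 16 of 16 alternatives, from 0.77 to 0.96. Without Dox Alas2 had 0.29 ± 0.12 (adjusted p = 0.13), 0.59 without untreated replicate 2 of 12 h (adjusted p = 0.00066) and 0.018 without replicate 1 (adjusted p = 0.96). Tfrc fell with Dox (-0.26 ± 0.06, adjusted p = 0.0032; 10.1% were called lower) and without (-0.25 ± 0.06, adjusted p = 0.0079; 3.07% were called lower and 4.39% higher). Both falls were lost in limma, that with Dox also without Dox replicate 2 of 12 h (-0.19, adjusted p = 0.075), and that without Dox also without untreated replicate 1 of 6 h (-0.18, adjusted p = 0.22). It was likewise lost without untreated replicate 2 of 12 h (-0.17, adjusted p = 0.18; -0.34, adjusted p = 0.0019, without replicate 1). Without replicate 2 of 12 h Alas2, Slc4a1 (0.49, adjusted p = 0.0051) and Ermap (1.00, adjusted p = 0.015) were called higher.

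Levels of different genes were set side by side as RPKM, which counts per kilobase of gene model. Tfrc was the highest and Fech the second in all 6 groups, at 31.3 ± 2.0 and 21.5 ± 1.2 RPKM in Dox cells of 24 h, against 43.3 ± 2.0 and 28.8 ± 1.2 RPKM in untreated cells of 24 h (SD, n = 2 each). Slc4a1 was 6th of 8 in the Dox groups, at 2.61 ± 0.038, 2.41 ± 0.17 and 3.72 ± 0.29 RPKM over the hours. Without Dox it was at 5.16 ± 0.029, 5.90 ± 2.01 and 13.4 ± 0.097 RPKM, 6th at 6 and 12 h as well and 4th at 24 h. Ermap and Ank1 were the lowest in every group, at 0.55 ± 0.11 and 0.38 ± 0.014 RPKM with Dox at 24 h and 1.68 ± 0.087 and 0.99 ± 0.014 RPKM without. Their libraries overlapped at 6 and 12 h in both conditions and not at 24 h. Neighbours in the order also overlapped for Urod and Alas2 without Dox at 6 h, and for Alas2, Urod, Klf1 and Slc4a1, each with the next, without Dox at 12 h.

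The course over the 12 libraries was compared by the root mean square difference of log2 CPM after centring each gene, where 0 would be an identical course. Among the 8 genes the nearest pairs were Urod and Fech (0.12), Ank1 and Klf1 (0.14) and Urod and Tfrc (0.14), and the farthest Slc4a1 and Tfrc (0.83). The measure is not scaled for how far a gene moves. Set against a flat course, Fech had 0.15, Urod 0.21, Tfrc 0.27, Ank1 0.44, Klf1 0.45 and Slc4a1 0.84. A small distance between genes that moved little, such as Urod, Fech and Tfrc, therefore need not mean a shared course. Among other tested genes the nearest was Alad for Urod (0.090), Ift74 for Fech (0.051), Mdm1 for Tfrc (0.064), Slc25a37 for Klf1 (0.10), Bnc2 for Alas2 (0.15), Nrgn for Ank1 (0.14), Slc16a10 for Ermap (0.22) and Ptafr for Slc4a1 (0.28). These are descriptions over libraries that share groups, depth and culture, and carry no test.

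Globins and markers of other cell types also differed between Dox and untreated cells at 24 h. At 24 h 6.52% of all tested genes were called lower and 4.50% higher. Globins summed to 1168 to 1440 CPM with Dox and 2228 to 2521 CPM without Dox at 24 h. Of 6 tested globin genes 5 fell and Hbb-y, an embryonic globin gene, rose (0.26 ± 0.08, edgeR adjusted p = 0.019), with reads that near-identical globin copies may share. Hbb-y was also higher with Dox at 6 h (0.61 ± 0.08, adjusted p = 2.1e-05) and 12 h (1.475 ± 0.078, adjusted p = 3.6e-14). Of 9 tested megakaryocyte markers 9 fell at 24 h, with sums of 334 to 345 CPM with Dox and 570 to 576 CPM without. Of 9 tested macrophage markers 7 fell, with sums of 55.4 to 58.5 CPM with Dox and 109 CPM in each untreated library, and C1qa was at 0 in both Dox libraries and averaged 0.036 CPM in the untreated ones. Endothelial markers summed to 2818 to 2925 CPM with Dox and 2563 to 2605 CPM without at 24 h. Of 12 tested endothelial markers 6 rose and 1 fell, Cd34 (-0.48 ± 0.05, edgeR adjusted p = 4.1e-08). Proliferation markers summed to 1390 to 1425 CPM with Dox and 1527 to 1594 CPM without, and mast cell markers to at most 1.36 CPM in the untreated libraries. The part of these cell types in the fall of the 8 genes was not tested.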

How the data were processed

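Count and RPKM tables of 12 libraries were used as deposited. Counts are raw reads per gene, and RPKM values are reads scaled to the length of the gene model and to library size, both made by the authors. Reads of 75 bases were single, from 200 ng RNA, a strand-specific kit and 14 PCR cycles, per the labels' protocols. The submitters' processing notes name GRCm38, edgeR 3.8.5 under R 3.1.0, SAMtools 0.1.19, Bowtie2 2.21 and bcl2fastq 2.16.0.10. Which program counted reads, with which strand setting and which annotation, is not given in the sources used here.

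Counts were fitted with edgeR 4.0.16 (R 4.3.3): TMM scaling, filterByExpr (15347 of 41128 genes kept), a quasi-likelihood fit with a mean per group over all 12 libraries (6 residual degrees of freedom) and Benjamini-Hochberg adjustment, with calls under 0.05. CPM uses TMM-scaled library sizes, and an SE is the log2 fold change over the square root of F. Alternatives were DESeq2 1.42.0, limma 3.58.1 on log2(RPKM + 0.1) or log2(RPKM + 1), other scalings and filters, a fit of only the groups compared, each replicate left out, a replicate block, a block crossed by depth, and list counts without either untreated 12 h library, the last 2 chosen after seeing the data. Total counts per library set the precision of low genes.

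The 8 genes and all lists were chosen with earlier results of these data known. Named were the 8 genes, up to 4 called genes by adjusted p per list and comparison with those against its majority, the haem synthesis genes and paralogs, and the 3 genes nearest in course to each of the 8 among genes averaging 1 or more in log2 CPM. Some listed genes are not reported here, and the haem synthesis and membrane counts leave them out. C1qa, Rhd and Cldn13 were named after their values were seen. No value column was left unused (0 in both tables). The main fit did not pair libraries by replicate number. Deviations of same-numbered libraries correlated from -0.264 to 0.218 over 15 pairs of groups, and 0 same-hour pairs exceeded 0.1. The value of -0.264 was that of the 6 h groups, where libraries of the same depth class correlated at 0.264. Such correlations cannot show whether libraries shared a culture, under the same or other numbers. Upstream DNA came from a RefSeq table on GRCm38.p6.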

Additional observations from a re-analysis of the deposited data

Results flagged for a closer look

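The Dox effect differed between 24 h and 12 h, by a test of the difference itself, for 3 of the 8 genes. The difference of log2 fold changes was -1.12 for Alas2 (edgeR adjusted p = 5.2e-05), -1.20 for Ank1 (adjusted p = 0.0039) and -0.87 for Klf1 (adjusted p = 0.04). Without untreated replicate 1 of 12 h it was -1.39 for Alas2, -1.50 for Ank1 and -1.19 for Klf1. Without untreated replicate 2 of 12 h it was -0.82 for Alas2, -0.84 for Ank1 and -0.50 for Klf1. Ank1 and Klf1 lost their calls there, where fewer of all tested genes were called as well. The untreated 12 h replicates differed for all 8 genes, and the part of that difference in these results was not tested.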

How the results depend on the processing

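Of 1076 values of single genes under alternatives, 962 kept direction and side of the threshold, 79 lost the call, 22 gained it and 13 turned sign, and of 152 counts of called genes 114 stayed within 1.5 times. With no filter the count was 5 for the Dox effect at 12 h, 1 for its change from 6 to 12 h, 5 for its change from 12 to 24 h, and 2 without Dox from 6 to 12 h. Limma with pseudocount 0.1, with pseudocount 1 and with no filter called 1, 0 and 0 genes for Dox at 6 h, 1, 1 and 1 at 12 h, and 0, 1 and 0 for the change from 12 to 24 h. In the same order it called 1, 1 and 1 with Dox from 6 to 12 h, 1, 1 and 1 with Dox from 12 to 24 h, 0, 0 and 0 without Dox from 6 to 12 h, and 2, 2 and 2 without Dox from 12 to 24 h. Over all tested genes DESeq2 called 204, 764 and 1336 at 6, 12 and 24 h, and edgeR 236, 1038 and 1690. With no filter edgeR called 342, 1233 and 1702. At the same hours limma called 78, 354 and 1250 with pseudocount 0.1, and 67, 365 and 1328 with pseudocount 1. With no filter limma called 40, 253 and 959. For the change from 12 to 24 h the limma fits, in the order above, called 6, 108 and 2, against 185 in edgeR. Limma called fewer of all tested genes in each of these comparisons, so its few calls say little about the genes described.

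Leaving out 1 replicate gave counts from 1 to 2 for Dox at 6 h, 2 to 4 at 12 h and 7 to 8 at 24 h, 0 to 1 for the change from 6 to 12 h and 1 to 5 for that from 12 to 24 h. It gave 1 to 2 with Dox from 6 to 12 h, 2 to 4 from 12 to 24 h, 0 to 3 without Dox from 6 to 12 h and 2 to 5 from 12 to 24 h. Signs turned in ranges from -0.54 to 0.14 for Ank1 at 12 h, and with Dox from -0.14 to 0.030 for Fech (0.030 without Dox replicate 2 of 6 h) and -0.041 to 0.29 for Ermap over 6 to 12 h, and -0.37 to 0.12 for Ermap over 12 to 24 h (0.048 without Dox replicate 2 of 24 h). Without Dox over 6 to 12 h they were -0.21 to 0.49 for Slc4a1, -0.13 to 0.54 for Ank1, -0.12 to 1.00 for Ermap, -0.22 to 0.47 for Klf1, -0.22 to 0.12 for Urod and -0.074 to 0.038 for Fech, and over 12 to 24 h -0.15 to 0.18 for Urod and -0.021 to 0.66 for Klf1. The number of all tested genes called also changed when a replicate was left out. The cause of these changes was not tested. With the replicate block 2, 3 and 8 genes were called at 6, 12 and 24 h, as without it and with the crossed block, and no count changed in the other comparisons. Depth limits Ermap most, with 38 to 307 counts per library.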
